A study of Mus musculus with 26 samples.

Results

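RNA bound to the ribosomes of GnRH neurons was compared with the RNA left behind in the same tissue, in ovary-intact female mice in diestrus. Members were the libraries that the labels give as intact female, split into a ribosome pull-down and a supernatant of each pool, and they were 6 of 26 libraries. The mice carried GnRH CRE and a floxed-stop L10a-GFP allele, so that Cre recombination switched on a GFP-tagged ribosomal protein in GnRH neurons. Punches of the preoptic area of the hypothalamus came from adults of 55 to 165 days, in pools of 7 mice (replicate 0), 6 mice (replicate 1) and 5 mice (replicate 2). Steroid status had been checked by uterine mass and serum LH, per the labels. The groups set beside these females carried the same alleles: intact males (8 libraries), gonadectomized, here ovariectomized, females (6 libraries) and gonadectomized, here orchidectomized, males (6 libraries). The last enter only where the other 3 conditions are pooled.

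GnRH neurons are a small, scattered population whose secreted decapeptide drives LH and FSH release from the pituitary and so controls the gonads. They arise in the nasal region and migrate into the forebrain before birth, and in diestrus they work under negative feedback from ovarian steroids. Translating ribosome affinity purification pulls tagged ribosomes out of a lysate with an antibody against GFP, and a gene used mainly by the tagged cells is then higher in the pull-down than in the supernatant. The model has limits. Recombination is permanent, so any cell that once expressed the driver keeps the tag. Ribosome-bound RNA is compared with RNA that also holds nuclear transcripts, so cell type and ribosome association cannot be told apart, and neither can fewer cells of a type and less RNA per cell.

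Total counts ran from 39756506 to 56668582 in the 6 libraries. The pull-downs detected 15757, 16018 and 17025 genes and the supernatants 18043 to 18186. Spread between replicates was larger among the pull-downs, with a biological coefficient of variation of 0.678 against 0.201 for the supernatants. Without pair 2 it was 0.715 for the pull-downs and 0.134 for the supernatants, so pull-downs 0 and 1 also differed from each other. Pair 2 stood apart. Its libraries are numbered 11 and 21, whereas those of pairs 0 and 1 fall within numbers 1 to 10, so library number, the smallest pool and pair 2 cannot be told apart. Across genes, which are not independent replicates, log2 CPM (counts scaled to library size) of pull-down and supernatant correlated at r = 0.906 in pair 0, 0.917 in pair 1 and 0.971 in pair 2. Slc17a7, a vesicular glutamate transporter typical of cortical excitatory neurons, was at 77.9 CPM in supernatant 2 and 36.7 in pull-down 2, against 1.39 to 5.61 CPM in the other 4 libraries. A list of 30 preoptic neuropeptide and related genes included the galanin gene Gal and the receptor gene Tacr3. Its summed level was 693.6 and 776.3 CPM in the libraries of pool 2 and 1524 to 1900 CPM in those of pools 0 and 1. The part of these differences in the results below was not tested, and results are given with and without pair 2.

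With all 3 pairs, 1706 of 16713 tested genes (10.2%) were higher in the pull-down and 1299 (7.77%) were lower, at an adjusted p under 0.05 in edgeR's two-sided quasi-likelihood test with Benjamini-Hochberg adjustment. Differences below are log2 fold changes, pull-down over supernatant, from 3 pools per fraction. Each standard error (±) is the absolute log2 value divided by the square root of the test's F statistic. It rests on a spread shared over all fitted libraries, without a pool term, and is not the spread of the 3 pools. At least 2-fold differences made up 565 of the higher and 633 of the lower genes. The median log2 difference over all tested genes was -0.07. Without pair 2, 2158 of 16980 genes (12.7%) were higher and 1882 (11.1%) lower. Of the 1706 higher genes, 1649 remained called without pair 2 (96.7% of the first list and 76.4% of the second), and of the 1299 lower genes 1029 did (79.2% and 54.7%). The values of the 3 pull-downs lay wholly above those of the 3 supernatants for 2674 genes (16%) and wholly below for 2977 (17.8%). Pairs 0 and 1 carried most of the calls. Without pair 0 the counts were 181 higher and 227 lower of 16962 genes, and without pair 1 they were 396 and 309 of 16962. List counts below that leave out a pair are to be read against these. Of 104 other genes named below as called, 53 lost the call without pair 0, 45 without pair 1 and 5 without pair 2. Some of the 104 were named by rules that fixed their call without pair 2. The 5 is therefore not comparable with the 53 and 45. Leaving out 1 library at a time gave 716 to 2618 higher and 507 to 2312 lower genes, lowest without pull-down 0 and highest without pull-down 2. A fit on the 6 libraries alone, which cannot borrow the spread of the other groups, called 96 higher and 82 lower genes of 15783, with 3797 at an unadjusted p under 0.05.

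**Figure D1:**
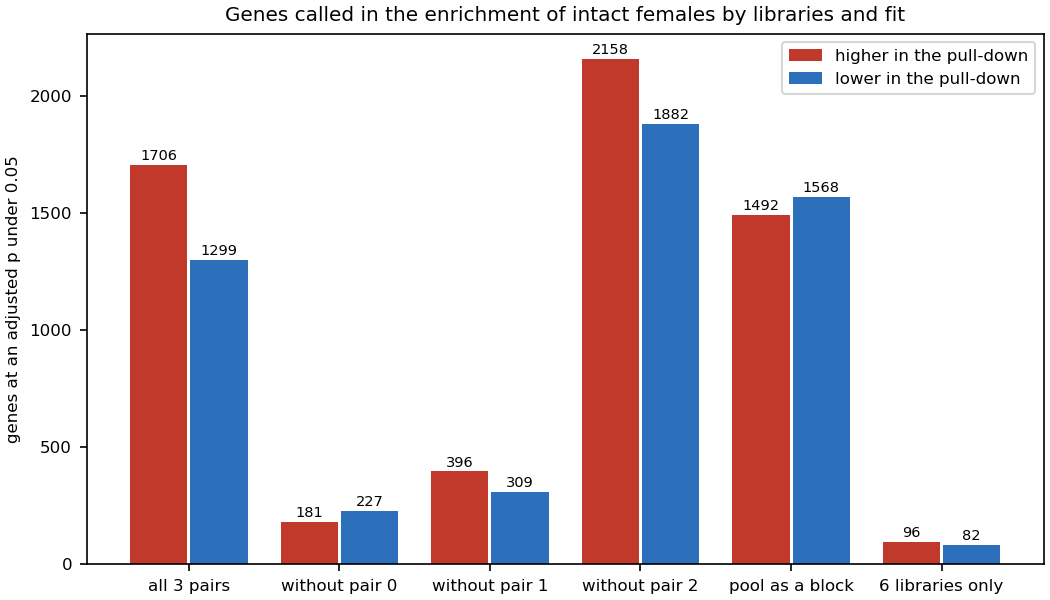
Genes called higher (red bars) or lower (blue bars) in the pull-down of intact females, as counts from 0, for the fit with all 3 pairs, without each pair, with the pool as a block and with the 6 libraries alone. The bars reach 1706 and 1299 with all pairs, rise to 2158 and 1882 without pair 2, and drop to 181 and 227 without pair 0.

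Gnrh1 (chromosome 14, 67745181 to 67749439 on mm10, plus strand), which encodes the GnRH precursor, was at 20931, 16896 and 3174 CPM in pull-downs 0, 1 and 2. It was at 98.2, 69.0 and 1579 CPM in the matching supernatants. The groups did not overlap, but supernatant 2 held 18.9 times the mean of the other supernatants, and pull-down 2 was the lowest pull-down. The log2 fold change was 4.55 ± 0.99 (SE; edgeR adjusted p = 0.00329, higher in 3 of 3 pairs) and 7.89 ± 0.93 without pair 2 (adjusted p = 1.03e-05). With the pool as a block it was 6.33 (adjusted p = 0.0113), and without supernatant 2 alone it was 7.35. The call was lost without pair 0 (3.60, adjusted p = 0.0758) and in the fit on the 6 libraries alone (4.56, adjusted p = 0.0954). By pair, pull-down over supernatant was 7.74, 7.93 and 1.01 on the log2 scale.

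**Figure D2:**
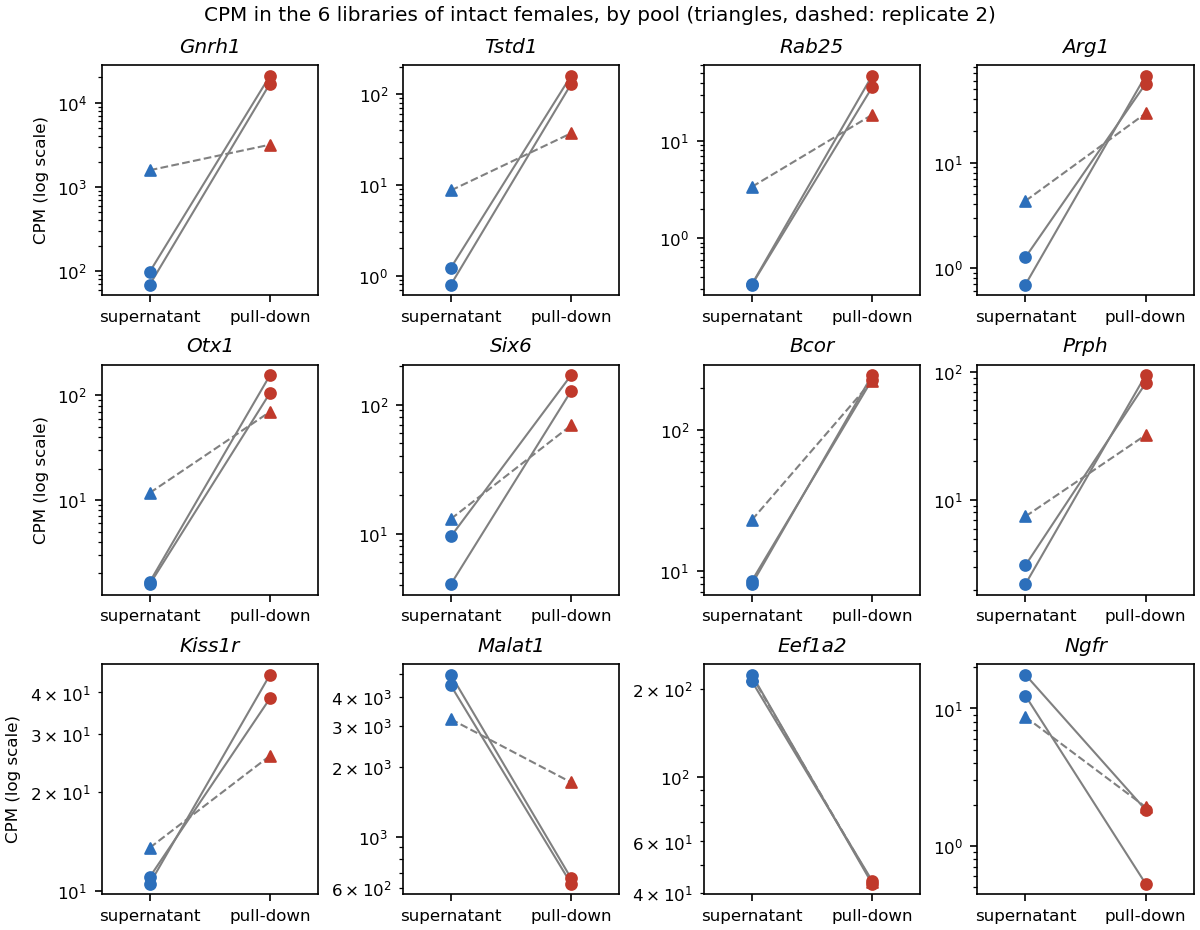
CPM on log axes in the supernatant (blue) and pull-down (red) of each pool, joined by a line, for 12 genes; replicate 2 is drawn as triangles with a dashed line. Gnrh1 spans 69.0 to 20931 CPM, the dashed line climbs less than the solid ones for Gnrh1, Tstd1 and Otx1, and the 3 lines nearly coincide for Eef1a2.

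Supernatant 2 was high for the genes that mark the pull-downs elsewhere. These genes were taken from the pull-downs of the other 3 conditions (intact males and gonadectomized mice of both sexes), which share no library with intact females. Of 23 genes at least 16-fold higher there, supernatant 2 was the highest of the 3 supernatants in 23, at a median 3.75 times the mean of the others. Among all tested genes it was the highest in 39.3%, with a median ratio of 0.994. For 31 genes at least 8-fold higher elsewhere it was highest in 30, and their median log2 difference was 4.80 in pair 0, 4.75 in pair 1 and 2.1 in pair 2. Among enriched genes averaging at least 50 CPM in pull-downs 0 and 1, the ratios next to Gnrh1 were 14 for Epcam, 8.63 for Tstd1, 7.28 for Otx1, 5.41 for Bahcc1, 4.43 for Arg1, 3.75 for Gng8 and 3.35 for Tnrc18. They were picked as enriched in pairs 0 and 1 and as highest in this ratio, so they describe extremes and are no test. Pull-down 2 moved the other way: it was the lowest pull-down for 26 of those 31 genes, against 31.6% of all tested genes. For 166 genes at least 2-fold lower in the other conditions' pull-downs, pull-down 2 was the highest in 98 (59.0%), against 37.1% over all genes.

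**Figure D3:**
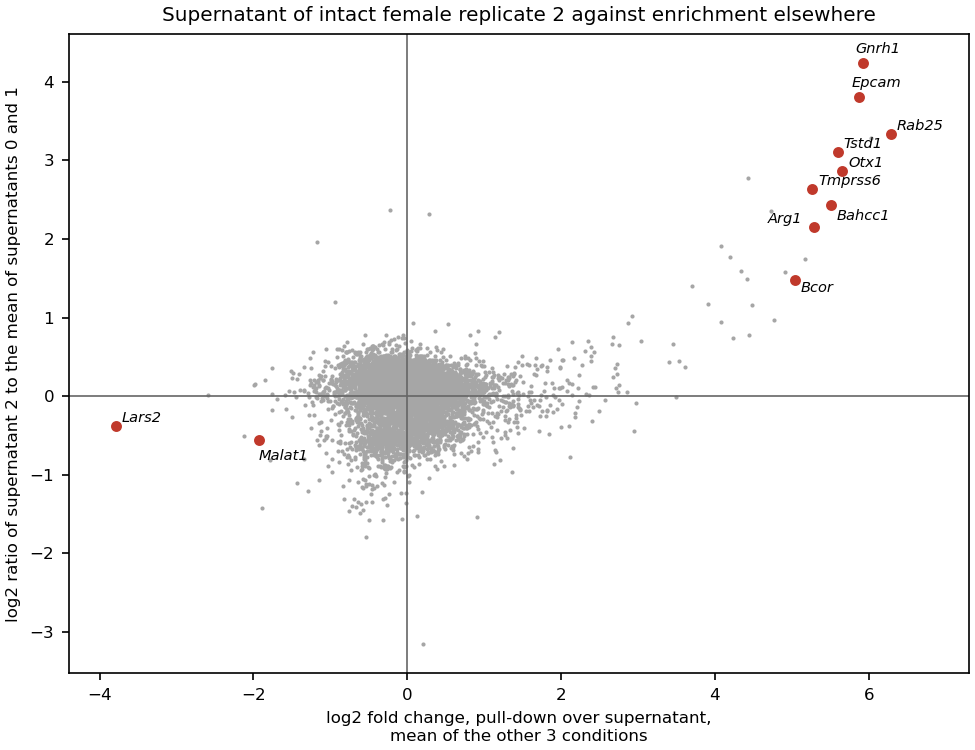
Each point is a gene with at least 20 CPM in the pull-downs of the other 3 conditions; the x axis is its log2 fold change there and the y axis the log2 ratio of supernatant 2 to the mean of supernatants 0 and 1. Points far to the right climb above 0, with Gnrh1 at a ratio of 18.9 and Epcam at 14, while the bulk of genes lies around 0.

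Among the 15 highest genes under the naming rule were Tstd1, Rab25, Arg1, Gnrh1, Otx1, Ap1m2, Ccdc68, Epcam, Bcor, Bahcc1, Prph, Cabp4, Gse1 and Acbd7, with log2 fold changes from 4.91 down to 3.86. The naming rule itself required a gene to be higher in 3 of 3 pairs and called without pair 2, so neither is a test. All 15 kept their calls without pair 1 and with the pool as a block. Without pair 0, Gnrh1 lost its call. Tstd1 (chromosome 1, 171418872 to 171420352), a thiosulfate sulfurtransferase-like gene, was at 159, 129 and 37.0 CPM in the pull-downs and 1.22, 0.795 and 8.68 CPM in the supernatants (log2 fold change 4.91 ± 0.75, adjusted p = 0.000139). Arg1 (chromosome 10, 24915221 to 24927484) encodes the arginase that splits arginine into urea and ornithine. Arg1 was at 66.7, 56.0 and 29.3 CPM against 0.693, 1.26 and 4.32 CPM (4.58 ± 0.54, adjusted p = 6.73e-06). Prph encodes peripherin, an intermediate filament known from peripheral neurons, and was at 81.3, 93.9 and 32.1 CPM against 3.10, 2.21 and 7.45 CPM (4.01 ± 0.44, adjusted p = 2.38e-06). Gse1, a coiled-coil protein of a corepressor complex, was the most abundant of the 15 after Gnrh1, at 1028, 762 and 788 CPM against 36.0, 33.7 and 104 CPM. No pull-down overlapped a supernatant for these 4 genes.

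Among 25 genes chosen for their known place in GnRH neurons, 10 rose and 2 fell with all pairs, against 10.2% and 7.77% of all genes, and their median log2 fold change was 0.68. Without pair 2, 11 rose and 3 fell (median 0.90), without pair 0 the counts were 4 and 1, without pair 1 they were 6 and 1, and with the pool as a block they were 11 and 1. Kiss1r, the kisspeptin receptor through which GnRH neurons are stimulated, was at 38.4, 45.3 and 25.7 CPM in the pull-downs and 11, 10.5 and 13.5 CPM in the supernatants (1.65 ± 0.28, adjusted p = 0.000512). Every Kiss1r pull-down lay above every supernatant. Npffr1, a receptor for RFamide-related peptides, rose by 1.37 ± 0.36 (adjusted p = 0.0106). Ptger2, a prostaglandin E2 receptor, rose by 1.92 ± 0.49 (adjusted p = 0.00906), but its groups overlapped, with 2.72 CPM in pull-down 2 and 3.00 in supernatant 1. Ecel1, an endothelin-converting enzyme-like protease, rose by 0.87 ± 0.27 (adjusted p = 0.0282), also with overlap. The neuropeptide galanin (Gal) did not pass with all pairs (0.90 ± 0.39, adjusted p = 0.114), but passed without pair 2 (1.07, adjusted p = 0.0473) and with the pool as a block (0.80, adjusted p = 0.013). Fgfr1, the FGF receptor whose loss impairs GnRH neuron development, was lower at 9.77, 21.6 and 10.7 CPM against 52.0, 58.9 and 28.5 CPM (-1.73 ± 0.31, adjusted p = 0.000748). Npffr1, Ptger2 and Ecel1 lost their calls without pair 0 and without pair 1.

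None of 25 steroid receptor and coregulator genes rose and 4 fell with all pairs, against 10.2% and 7.77% of all genes (median -0.21, against -0.07); without pair 2, 2 rose and 7 fell, without pair 0 or pair 1 the counts were 0 and 2, and with the pool as a block they were 1 and 4. Esr2, the estrogen receptor beta described in GnRH neurons, was at 0.106, 0.252 and 0.274 CPM in the pull-downs and 1.79, 1.19 and 0.897 CPM in the supernatants, with no overlap (-2.59 ± 0.84, adjusted p = 0.0343). With the pool as a block Esr2 did not pass (adjusted p = 0.0655). Esr1, the estrogen receptor alpha, was at 8.15, 4.44 and 10.7 CPM against 18.8, 17 and 21.9 CPM, a difference of -1.31 ± 0.57 that did not pass (adjusted p = 0.111). Pgrmc2, a membrane-associated progesterone receptor component, fell by 0.69 ± 0.11 on the log2 scale (adjusted p = 0.000302), and the orphan receptor gene Esrra fell by 0.65 ± 0.14 (adjusted p = 0.00314). Esr2 lost its call without pair 0 and without pair 1.

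Of 54 homeobox regulators, 7 rose and 11 fell, against 10.2% and 7.77% of all genes, with a median of -0.45, and the counts were the same without pair 2; 6 rose and 3 fell without pair 0 and likewise without pair 1, and with the pool as a block 7 rose and 16 fell. The forebrain regulator Otx1 (chromosome 11, 21994764 to 22002897) was at 156, 105 and 69.7 CPM in the pull-downs against 1.65, 1.57 and 11.7 CPM (4.46 ± 0.56, adjusted p = 1.62e-05). Six6, required for GnRH neuron and eye development, was at 169, 127 and 69.0 CPM against 9.51, 4.06 and 13 CPM (3.77 ± 0.46, adjusted p = 9.57e-06). For both genes the groups stayed apart, and the supernatant of pool 2 was the highest supernatant. Isl1 (1.44 ± 0.18, adjusted p = 1.43e-05), Meis1 (1.42 ± 0.24, adjusted p = 0.000433) and Dlx5 (1.03 ± 0.18, adjusted p = 0.000618) rose as well. Pou2f1, encoding the Oct1 factor that binds the Gnrh1 promoter, rose by 1.21 ± 0.34 (adjusted p = 0.017) but did not pass without pair 2 (adjusted p = 0.0737). The POU genes Pou3f1 (-1.62 ± 0.29, adjusted p = 0.000669), Pou3f2 (-1.25 ± 0.30, adjusted p = 0.00626) and Pou3f4 (-2.17 ± 0.45, adjusted p = 0.00243) fell. Lhx6, a regulator of forebrain interneurons, fell by 0.74 ± 0.22 (adjusted p = 0.025), with groups that overlapped. Pou2f1, Pou3f2 and Lhx6 lost their calls without pair 0 and without pair 1, and Pou3f4 lost its call without pair 1.

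Of 32 tested genes best known from epithelia, 13 rose and 1 fell, against 10.2% and 7.77% of all genes, with a median of 1.26. The list was chosen with earlier results of these data known, so its count is no independent support. Without pair 2 the counts were 13 and 1 (median 1.57), without pair 0 they were 7 and 0, and without pair 1 they were 9 and 0. Rab25 (chromosome 3, 88542029 to 88548300), a GTPase of recycling endosomes, was at 47.0, 35.7 and 18.6 CPM in the pull-downs and 0.334, 0.331 and 3.37 CPM in the supernatants (4.62 ± 0.71, adjusted p = 0.000145). Epcam (chromosome 17, 87635979 to 87651129), a cell adhesion molecule, was at 41.1, 66.2 and 14.1 CPM against 0.406, 0.397 and 5.62 CPM (4.22 ± 0.81, adjusted p = 0.00138). Pull-down and supernatant did not overlap for either gene, and the ratio was smallest in pair 2. The adaptor subunit gene Ap1m2, used in basolateral sorting, rose by 4.29 ± 0.66 (adjusted p = 0.000146). Claudin genes of tight junctions rose: Cldn3 by 3.70 ± 0.59, Cldn9 by 3.33 ± 0.60 and Cldn7 by 3.30 ± 0.69. Krt8, an epithelial keratin, was at 32.9, 23.6 and 15.1 CPM against 1.05, 1.68 and 4.65 CPM (3.27 ± 0.44, adjusted p = 3.46e-05). The membrane serine protease Tmprss6 rose by 3.64 ± 0.56 (adjusted p = 0.000153) and the protease inhibitor Spint2 by 1.31 ± 0.36 (adjusted p = 0.0137). Cldn7 and Spint2 lost their calls without pair 0 and without pair 1.

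Chromatin regulators and corepressors held some of the most abundant enriched genes, although the group as a whole did not lean upward. In all, 6 of 40 rose and 8 fell, against 10.2% and 7.77% of all genes, with a median of -0.20. Bcor (chromosome X, 12036740 to 12160355), a corepressor of BCL6, was at 229, 246 and 225 CPM in the pull-downs and 8.45, 7.99 and 22.9 CPM in the supernatants (4.15 ± 0.43, adjusted p = 1.69e-06). Its pull-down level was nearly equal in the 3 pools. Tnrc18, a protein with a chromatin-binding BAH domain, was at 1076, 1131 and 1090 CPM against 47.8, 42.1 and 150 CPM (3.78 ± 0.40, adjusted p = 1.69e-06). Bahcc1, its relative, was at 520, 449 and 312 CPM against 9.86, 10.7 and 55.7 CPM (4.07 ± 0.51, adjusted p = 1.54e-05). Kdm6b, a histone H3 demethylase, rose by 3.05 ± 0.42 (adjusted p = 4.5e-05) and Chd7, a remodeller mutated in CHARGE and Kallmann syndromes, by 1.70 ± 0.26 (adjusted p = 0.000142). Arid1b, a BAF subunit, rose by 0.83 ± 0.28 (adjusted p = 0.0384), a call that was lost without pair 2 (adjusted p = 0.067). In this group 5 rose and 3 fell without pair 0, and the same counts held without pair 1. Arid1b lost its call without pair 0 and without pair 1.

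Of 43 genes linked to hypogonadotropic hypogonadism in people, 2 rose (Chd7 and Kiss1r) and 6 fell, with a median of -0.32. Over all genes, 10.2% rose and 7.77% fell. Prok2, the prokineticin that guides olfactory and GnRH axons, was at 3.53, 5.01 and 4.99 CPM in the pull-downs and 16, 16.8 and 8.94 CPM in the supernatants (-1.62 ± 0.33, adjusted p = 0.00199). Tacr3, the neurokinin B receptor, was at 0.133, 0.126 and 4.61 CPM against 8.19, 10.3 and 7.45 CPM (-2.41 ± 0.75, adjusted p = 0.0282). Tacr3 was nearly absent from pull-downs 0 and 1 and at more than a trace in pull-down 2. It was lower in 3 of 3 pairs, which the naming rule for the lowest genes requires. Tacr3 was not called in intact males (-0.94, edgeR adjusted p = 0.284) or gonadectomized females (-0.605, adjusted p = 0.725). Without pair 2 it was more enriched in males than in intact females, by 5.14 (edgeR adjusted p = 0.00046). For gonadectomized females this was 5.46 (adjusted p = 0.000336), where gonadectomy and library number cannot be told apart. Without pair 2, 3 genes of the group rose and 6 fell, without pair 0 the counts were 2 and 2, and without pair 1 they were 2 and 4. Tacr3 lost its call without pair 0 and without pair 1, and Prok2 lost its call without pair 0.

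Genes of the early secretory pathway leaned upward. Counts here are set against 10.2% of all genes that rose and 7.77% that fell. Of 50 genes of endoplasmic reticulum translocation and chaperones, 11 rose and 0 fell, with a median of 0.29 (12 and 0 without pair 2, 0 and 0 without pair 0, 3 and 0 without pair 1). Sec61b, a subunit of the translocation channel, was at 378, 287 and 130 CPM against 81.2, 83.2 and 94.6 CPM, with no overlap (1.62 ± 0.30, adjusted p = 0.00114). Its partner Sec61g rose by 1.57 ± 0.32 (adjusted p = 0.00214), the signal recognition particle gene Srp14 by 0.98 ± 0.21 (adjusted p = 0.0033) and the stress-regulated factor Atf4 by 0.49 ± 0.14 (adjusted p = 0.0181). Among 25 genes of prohormone processing and granins, 2 rose and 3 fell, and without pair 2 the counts were 5 and 5. Rab27b, a GTPase of dense-core granules, was at 122, 144 and 145 CPM against 65.4, 56.3 and 73.2 CPM (1.08 ± 0.22, adjusted p = 0.00217). Vgf, a granin-family precursor, was lower at 47.3, 81.1 and 52.8 CPM against 199, 247 and 106 CPM (-1.61 ± 0.31, adjusted p = 0.00133). The convertase chaperone Scg5 did not pass with all pairs (0.94 ± 0.40, adjusted p = 0.104) and passed without pair 2 (adjusted p = 0.0387) and with the pool as a block (adjusted p = 0.021). Without pair 0, 1 gene of this processing group rose and 0 fell, and without pair 1 the counts were 0 and 2. Srp14 and Atf4 lost their calls without pair 0 and without pair 1, Sec61b, Sec61g and Vgf lost their calls without pair 0, and Rab27b lost its call without pair 1.

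Nuclear genes of oxidative phosphorylation were the group with the most members called. Of 79 genes, 48 rose and 0 fell, against 10.2% and 7.77% of all genes, with a median of 0.68. Ndufb4, a complex I subunit, was at 567, 440 and 234 CPM in the pull-downs and 169, 164 and 193 CPM in the supernatants (1.24 ± 0.28, adjusted p = 0.00457). Atp5l, an ATP synthase subunit, was at 744, 584 and 323 CPM against 239, 222 and 245 CPM (1.23 ± 0.26, adjusted p = 0.00254). Cox7c, a cytochrome oxidase subunit, was at 562, 435 and 213 CPM against 179, 182 and 174 CPM (1.18 ± 0.29, adjusted p = 0.0081). The groups did not overlap for these genes, but the gap was small in pair 2. The median of the group was 1.10 in pair 0, 0.68 in pair 1 and 0.11 in pair 2. Without pair 2, 62 rose and 0 fell (median 0.96). Without pair 0 none was called, in a fit where 181 of 16962 genes rose. Without pair 1 4 rose, in a fit where 396 of 16962 genes rose. Transcript length moved with this result: the median longest transcript of these genes was 1014 bases against 3255 for all tested genes. Over all genes, Spearman's rank correlation between length and log2 difference, which is across genes and not over replicates, was -0.32 in pair 0, -0.24 in pair 1 and -0.11 in pair 2. The part of length in this result, or in that of any other list, was not tested. Ndufb4 and Cox7c lost their calls without pair 0 and without pair 1, and Atp5l lost its call without pair 0.

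Of 40 neurofilament, axon and kinesin genes, 4 rose, a share near the 10.2% of all genes, and 10 fell, against 7.77% of all genes; without pair 2 the counts were 7 and 8, without pair 0 they were 2 and 3, and without pair 1 they were 2 and 4. Beside Prph, the heavy neurofilament gene Nefh was at 200, 204 and 317 CPM against 82.1, 95.0 and 124 CPM, with no overlap (1.26 ± 0.35, adjusted p = 0.0156). Stmn2, a microtubule regulator of growing axons, rose by 0.95 ± 0.17 (adjusted p = 0.000579). Dpysl2, which promotes axon growth, was at 89.0, 86.1 and 82.6 CPM against 317, 350 and 365 CPM (-2.0 ± 0.14, adjusted p = 4.87e-09). Klc2, a kinesin light chain, fell by 2.07 ± 0.19 (adjusted p = 2.76e-07) and Clip2, a microtubule linker, by 1.67 ± 0.22 (adjusted p = 3.07e-05). Among 20 pan-neuronal genes, 3 rose and 3 fell with a median of -0.15 (3 and 4 without pair 2, 1 and 0 without either pair 0 or pair 1), and the ubiquitin hydrolase Uchl1 was one that rose (0.86 ± 0.20, adjusted p = 0.005). Nefh and Uchl1 lost their calls without pair 0 and without pair 1.

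Of 31 genes of vesicle release, 0 rose and 11 fell, against 10.2% and 7.77% of all genes, with a median of -0.52; without pair 2 17 fell, without pair 0 1 fell, without pair 1 2 fell, and 16 fell with the pool as a block. Cplx2, a complexin that clamps the fusion machinery, was at 98.2, 97.3 and 106 CPM in the pull-downs and 297, 292 and 262 CPM in the supernatants, apart in every pool (-1.50 ± 0.19, adjusted p = 1.77e-05). Rims1, an active zone scaffold, was at 4.43, 2.46 and 15.3 CPM against 24.6, 18.3 and 22.7 CPM (-1.57 ± 0.45, adjusted p = 0.018). The calcium sensor gene Syt2 fell by 1.44 ± 0.45 (adjusted p = 0.0273), and Vamp2, the vesicle SNARE, fell by 0.48 ± 0.14 (adjusted p = 0.0199) with groups that overlapped. Of 18 genes of transmitter identity, 1 rose and 4 fell (1 and 6 without pair 2, 0 and 1 without either pair 0 or pair 1). Slc32a1, the vesicular GABA transporter, was at 26.4, 27.4 and 14.8 CPM against 60.6, 70.6 and 37.4 CPM (-1.30 ± 0.25, adjusted p = 0.00159). The gene that rose was Hdc, histidine decarboxylase, at 18.6, 19.2 and 10.3 CPM against 7.81, 7.53 and 5.63 CPM (1.20 ± 0.30, adjusted p = 0.00876). Rims1, Syt2, Vamp2 and Hdc lost their calls without pair 0 and without pair 1.

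Channel and receptor genes are set against 10.2% of all genes that rose and 7.77% that fell. Their median longest transcript was 5183 bases for potassium channels, 5962 for calcium to TRP channels and 5720 for glutamate receptors. It was 4729 for the GABA-A list and 3576 for peptide, amine and prostaglandin receptors, against 3255 for all tested genes. The part of length in these counts was not tested. Among 36 potassium channel genes, 0 rose and 6 fell with a median of -0.58, and Kcna3 was at 4.54, 2.69 and 7.56 CPM against 27.3, 21.2 and 17.6 CPM (-2.16 ± 0.33, adjusted p = 0.00014). Among 42 calcium, sodium, HCN and TRP channel genes, 2 rose and 9 fell. Both that rose were TRP channels: Trpc7, a receptor-operated cation channel, at 83.9, 39.6 and 34.5 CPM against 18.8, 19.9 and 21.8 CPM (1.38 ± 0.26, adjusted p = 0.00125), and Trpm4, a calcium-activated cation channel, at 44.0, 33.9 and 16.7 CPM against 11.5, 12.5 and 14.4 CPM (1.30 ± 0.32, adjusted p = 0.00791). Cacna1b, the N-type calcium channel, fell by 1.52 ± 0.32 (adjusted p = 0.0027) and the auxiliary subunit gene Cacna2d2 by 1.46 ± 0.23 (adjusted p = 0.000177). Of 17 ionotropic glutamate receptor genes 0 rose and 5 fell (8 with the pool as a block), Gria1 among them (-0.98 ± 0.23, adjusted p = 0.00617), and of 16 GABA-A receptor and chloride transporter genes 0 rose and 3 fell. Slc12a5, the neuronal chloride extruder KCC2, was at 73.4, 109 and 84.9 CPM against 185, 187 and 129 CPM (-0.90 ± 0.23, adjusted p = 0.00901). Among 63 receptors for peptides, amines and prostaglandins, 3 rose (Kiss1r, Npffr1 and Ptger2) and 8 fell. The kappa opioid receptor gene Oprk1 was at 1.86, 2.42 and 4.99 CPM against 12.6, 13.1 and 7.5 CPM (-1.84 ± 0.39, adjusted p = 0.00268), and the dopamine receptor gene Drd2 fell by 1.46 ± 0.41 (adjusted p = 0.0167). Without pair 2, 16 of the receptors fell, without pair 0 none did, and without pair 1 3 did; for potassium channels these counts were 6, 1 and 2, for glutamate receptors 5, 0 and 1, for GABA-A receptors 4, 0 and 3, and for the calcium to TRP channels 10, 2 and 4. Trpm4, Gria1, Oprk1 and Drd2 lost their calls without pair 0 and without pair 1, and Trpc7, Cacna1b and Slc12a5 lost their calls without pair 0.

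The 15 lowest genes under the naming rule were Lars2, Ngfr, Fstl4, Tacr3, Zfyve9, Eef1a2, Itpkb, Ppp1r37, Kcna3, Wscd2, Gas1, Grid1, Stk24, Abi3 and Malat1, with log2 fold changes from -3.69 to -2.08. Lars2 (chromosome 9, 123366927 to 123462666), the mitochondrial leucyl-tRNA synthetase, was at 959, 930 and 1019 CPM in the pull-downs and 13579, 13641 and 10438 CPM in the supernatants (-3.69 ± 0.32, adjusted p = 1.64e-07). Lars2 can share sequence with ribosomal RNA, and nothing in the labels says how such reads were counted, which leaves its value uncertain. Ngfr (chromosome 11, 95568818 to 95587735), the low-affinity neurotrophin receptor, was at 0.531, 1.83 and 1.92 CPM against 12.4, 17.6 and 8.68 CPM (-3.17 ± 0.45, adjusted p = 6.38e-05). Eef1a2 (chromosome 2, 181147653 to 181157014), the elongation factor of mature neurons, was the steadiest, at 44.0, 43.0 and 43.5 CPM against 212, 224 and 221 CPM (-2.33 ± 0.20, adjusted p = 1.23e-07). The long noncoding RNA Malat1 (chromosome 19, 5795690 to 5802672), which stays in the nucleus, was at 661, 627 and 1713 CPM against 4983, 4477 and 3205 CPM (-2.08 ± 0.43, adjusted p = 0.00226). Pull-down 2 held the most Malat1 of the pull-downs, and supernatant 2 the least of the supernatants. The nuclear RNA Neat1 fell too (-1.22 ± 0.41, adjusted p = 0.0416). Calls without pair 2 were required by the naming rule, and all 15 kept their calls with the pool as a block. Without pair 0 and without pair 1, 9 of 15 did, and Fstl4, Tacr3, Zfyve9, Gas1, Grid1 and Malat1 lost theirs in both.

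Some glial markers fell, and glial transcripts were still counted in every pull-down. Marker counts are set against 10.2% of all genes that rose and 7.77% that fell. Of 24 oligodendrocyte markers, 0 rose and 9 fell with a median of -0.64 (9 without pair 2, 4 without pair 0, 3 without pair 1), and their summed level was 1682 to 2193 CPM in the pull-downs and 2905 to 3163 CPM in the supernatants. Mbp, the myelin basic protein gene, was at 550, 435 and 692 CPM against 840, 789 and 820 CPM (-0.55 ± 0.17, adjusted p = 0.0268). Cldn11, the claudin of myelin, fell by 1.92 ± 0.37 (adjusted p = 0.00141), and the lineage regulators Sox10 by 1.16 ± 0.23 (adjusted p = 0.00178) and Olig1 by 1.11 ± 0.19 (adjusted p = 0.000458). Of 20 astrocyte markers, 0 rose and 4 fell with a median of -0.79 (4 without pair 2, 0 without pair 0, 1 without pair 1), and the sums were 1380 to 1529 against 1636 to 2305 CPM. Gja1, the connexin of astrocytes, was at 8.18, 13.6 and 15.7 CPM against 45.2, 50.4 and 24.8 CPM (-1.68 ± 0.41, adjusted p = 0.00672), and Glul, glutamine synthetase, fell by 0.87 ± 0.18 (adjusted p = 0.00202). In other lists, where 7.77% of all genes is the background for a fall, 1 of 20 microglial markers fell (Cx3cr1, -2.22 ± 0.59, adjusted p = 0.0126), as did 1 of 24 endothelial and mural markers (Myh11, of smooth muscle), 2 of 14 meningeal and choroid plexus markers (Clic6 and Kcne2), 1 of 9 oligodendrocyte precursor markers (C1ql1) and 0 of 4 blood markers. For endothelial and mural markers the sum was 380 and 374 CPM in the 2 libraries of pool 1 and 125 to 155 CPM in the other 4. Of 13 ependymal and tanycyte markers, 1 rose (Dynlrb2) and 1 fell (Foxj1). Of 19 olfactory and septal genes, 2 rose and 4 fell, and Gng8, a G protein gamma subunit known from chemosensory neurons, was at 150, 116 and 41.6 CPM against 4.87, 4.17 and 17 CPM (3.56 ± 0.55, adjusted p = 0.000139). Of 29 other neuropeptide and related genes 0 rose and 1 (Tacr3) fell, of 23 immediate early genes 0 rose and 2 fell (Jund and Klf4), and of 11 nuclear noncoding RNAs 2 fell (Malat1 and Neat1). With the pool as a block, 2 ependymal, 2 neuropeptide and 1 immediate early gene rose, and 3 precursor, 2 microglial, 2 ependymal, 3 neuropeptide, 5 immediate early and 4 noncoding genes fell. Without pair 2, 3 precursor, 2 microglial and 2 ependymal markers fell. Without pair 0 and without pair 1, no member of these microglial, vascular, meningeal, precursor, ependymal, neuropeptide, immediate early or noncoding lists was called. Mbp, Gja1, Cx3cr1, Myh11, Clic6, Kcne2, C1ql1, Dynlrb2, Foxj1, Jund, Klf4, Malat1 and Neat1 lost their calls without pair 0 and without pair 1, and Glul lost its call without pair 0.

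**Figure D4:**
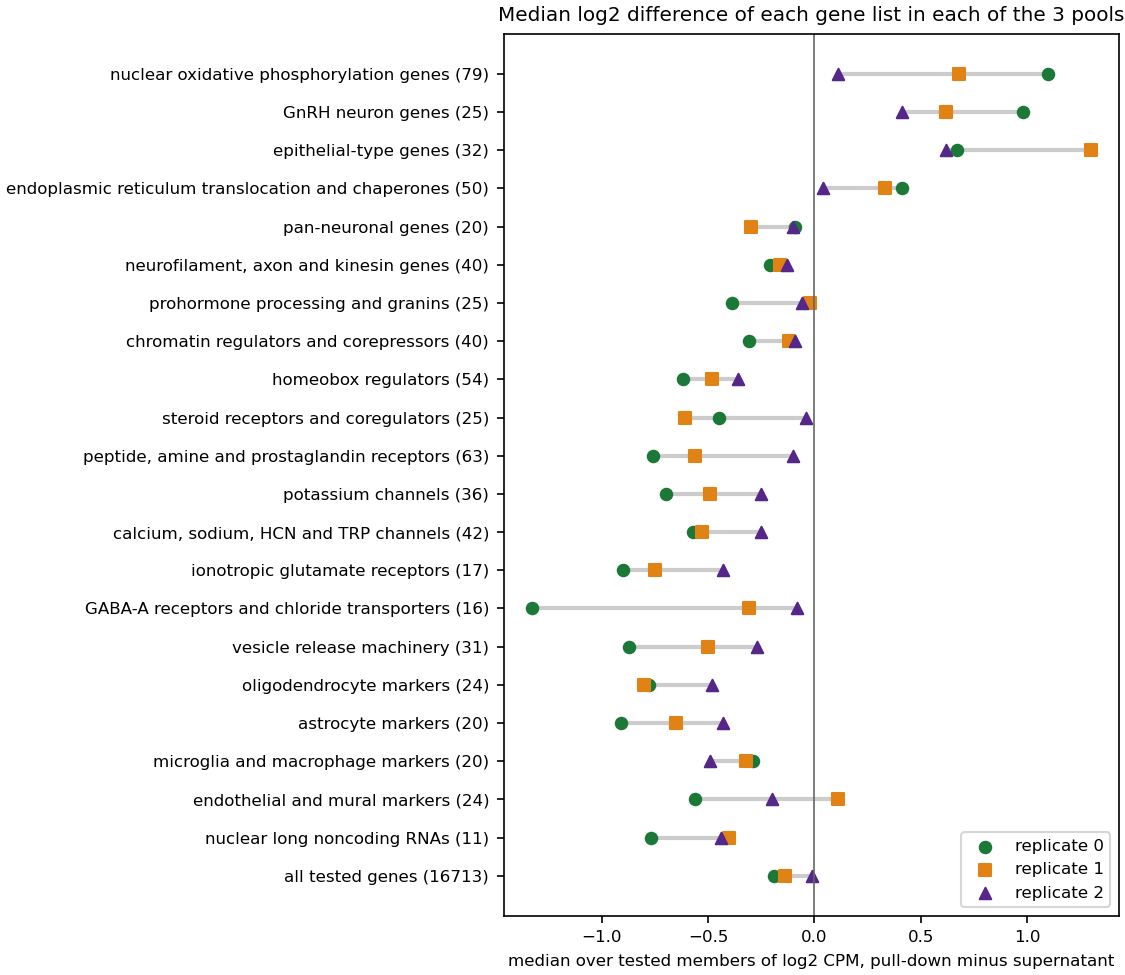
Median log2 CPM difference, pull-down minus supernatant, of each gene list (number of tested members in brackets) in replicate 0 (circles), 1 (squares) and 2 (triangles). Oxidative phosphorylation genes run from 0.11 in replicate 2 to 1.10 in replicate 0, and the triangle lies nearest to 0 for most lists.

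Leaving out pair 2 gained 1358 calls and lost 327. Examples of the gained lower calls, named by the rule, follow. Klf10, a TGF-beta-induced zinc finger factor, was at 0.292, 0.21 and 14.4 CPM in the pull-downs and 12, 15.9 and 15.6 CPM in the supernatants. Fmnl3, a formin that builds actin filaments, was at 0.0531, 0.0421 and 6.14 CPM against 5.47, 9.27 and 6.26 CPM. Mars2, the mitochondrial methionyl-tRNA synthetase, was at 0.133, 0.316 and 5.64 CPM against 6.33, 5.56 and 6.05 CPM. Each of these examples was nearly missing from pull-downs 0 and 1 and at the supernatant level in pull-down 2. Not every gene that the rule picks was as low in pull-downs 0 and 1. Of the 1882 genes lower without pair 2, 383 had at most 3 counts in both of pull-downs 0 and 1. Such genes were called through low values in these pull-downs, and the share over all tested genes was not counted. The 383 are therefore a description only. Among the calls lost, the translational regulator gene Lin28b was at 8.28, 9.91 and 13.9 CPM against 3.49, 4.42 and 3.34 CPM, and Fxr2, a relative of the fragile X protein, was at 172, 187 and 199 CPM against 271, 250 and 294 CPM. Fxr2 lost its call without pair 0 and without pair 1, and Lin28b lost its call without pair 0.

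In intact males, whose libraries are separate from these but whose pools 0 and 1 share the library numbers 1 to 10, 1537 of the 1706 higher genes were also called higher (90.1% of the female list and 62.8% of the male list). Of the 1299 lower genes, 842 were also called lower (64.8% and 44.8%). In gonadectomized females 375 higher genes were shared (22% and 75.6%) and 422 lower genes (32.5% and 76.2%). Over all 16713 tested genes, 2446 were called higher and 1879 lower in males, and 496 and 554 in gonadectomized females. Direction was the same for 99.5% of the higher genes in males and 91.3% in gonadectomized females. For the lower genes it was 94.5% and 90.9%. Without pair 2 the shares were 99% and 85.7% for higher genes and 89.4% and 82.7% for lower genes. The median log2 difference over all genes was -0.04 in males and -0.02 in gonadectomized females. Gnrh1 enrichment was 6.59 ± 0.94 in intact males and 4.64 ± 0.99 in gonadectomized females on the log2 scale. The difference from intact females did not pass for Gnrh1 in either group, at 2.04 ± 1.14 and 0.09 ± 1.20 with all pairs and at -1.26 ± 0.85 and -3.24 ± 0.92 without pair 2 (adjusted p = 0.0952 for the last).

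The difference in enrichment itself was tested between conditions. With all pairs, 0 genes (0%) were more and 1 gene (0.00598%) was less enriched in intact males than in intact females, with 740 at an unadjusted p under 0.05 and 9 called by the DESeq2 Wald test. That gene was Arap3, a GTPase-activating protein known from blood and lymph vessels. Arap3 was at 2.65, 4.35 and 2.47 CPM in the female pull-downs and 0.0733, 0.0529, 0.028 and 0.171 CPM in the male ones, with no overlap, while supernatants held 1.19 to 2.47 CPM in both sexes. The difference was -5.24 ± 0.84 (edgeR adjusted p = 0.033), and -5.55 ± 1.0 without pair 2 (adjusted p = 0.013). It did not pass with the pool as a block (adjusted p = 1), without pair 0 (0.184), without pair 1 (0.432) or within libraries 1 to 10 (0.398). Between gonadectomized and intact females, 0 genes (0%) were called in either direction by edgeR, with 1248 at an unadjusted p under 0.05 and 10 called by the DESeq2 Wald test. The lowest p belonged to Slitrk6, a synaptic adhesion gene, with 0.0531, 0.126 and 0.125 CPM in intact and 3.65, 2.81 and 7.69 CPM in gonadectomized female pull-downs (6.16 ± 1.09, adjusted p = 0.145).

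Leaving out pair 2 changed these counts. Then 59 genes (0.347%) were more and 2 (0.0118%) less enriched in males, and 51 (0.3%) more and 3 (0.0177%) less in gonadectomized females. The remaining intact female libraries fall within numbers 1 to 10. Those of gonadectomized females are 13 to 15 and 23 to 25, so gonadectomy and library number cannot be told apart here. With the pool also as a block, an alternative chosen after seeing the data, the totals were 9 and 18. Of the 59 genes, 30 had at most 3 counts in both remaining female pull-downs, and of the 51, 26 did. Low values there favour such calls, and the share over all tested genes was not counted. The fructose transporter gene Slc2a5 was at 0, 0 and 4.36 CPM in the intact female pull-downs and 1.43 to 3.23 CPM in the male ones. The monocarboxylate transporter gene Slc16a7 was at 0, 0 and 1.45 CPM in intact and 1.68 to 4.34 CPM in gonadectomized female pull-downs. For both genes pull-down 2 held what pull-downs 0 and 1 lacked. Tank, an adaptor of TRAF signalling, was less enriched in males (-1.21 ± 0.26, adjusted p = 0.0405): its pull-downs were at 60.9, 68.8 and 38.5 CPM in females and 31.2 to 32.3 CPM in males. Esf1, a nucleolar ribosome biogenesis factor, was less enriched in gonadectomized females (-1.23 ± 0.24, adjusted p = 0.019), with 45.5, 52.8 and 22.2 CPM in intact and 23.3 to 25.4 CPM in gonadectomized pull-downs. The small nucleolar RNA host gene Snhg3 differed likewise (-1.86 ± 0.40, adjusted p = 0.0443). In Esf1 and Tank, pull-down 2 lay nearer to the other condition than to pull-downs 0 and 1.

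**Figure D5:**
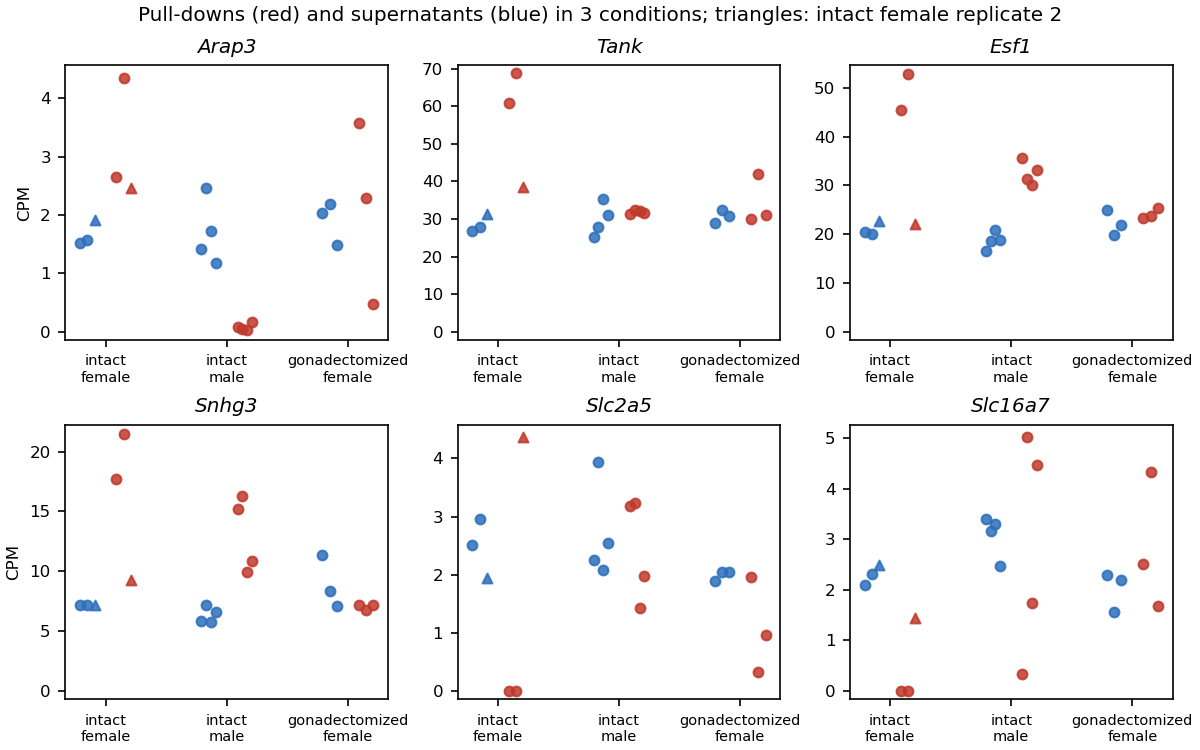
CPM from 0 in supernatants (blue) and pull-downs (red) of intact females, intact males and gonadectomized females for 6 genes; triangles are intact female replicate 2. Arap3 pull-downs of males lie at 0.028 to 0.171 CPM below all female ones, and the Slc2a5 and Slc16a7 triangles stand above 2 intact female pull-downs at 0.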

How the data were processed

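TRAP-seq libraries were made from each pool with the SMART-Seq v4 kit, per the labels' protocols, and sequenced as 50-cycle paired ends. The kit marks no strand, so antisense and overlapping genes are uncertain, as are close paralogs. The authors deposited a table of estimated counts for 23107 genes; 1.46% of values are not whole, and all were rounded before testing. Per the submitters' processing notes, TopHat2 2.0.9, Bowtie2 2.1.0 and Cuffdiff 2.1.1 were used with mm10; the annotation is not given in the sources used here. Positions are from GENCODE on GRCm38.

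All 26 libraries (8 groups) were fitted in edgeR 4.0.16 (R 4.3.3; limma 3.58.1, DESeq2 1.42.0): TMM, filterByExpr (minimum count 10, total 15), quasi-likelihood test, Benjamini-Hochberg adjustment over all tested genes, threshold 0.05. CPM values use TMM-adjusted library sizes. The filter keeps a gene that is high in a single group. Fold changes and CPM cover counting and pool error, without molecular identifiers. Replicates are separate pools and differed beyond sampling noise. Both fractions of a number come from the same mice, so numbers pair the libraries; deviations from group means correlated at 0.019, 0.127 and 0.115 within pools 0, 1 and 2.

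Genes named were the 15 highest and lowest by log2 fold change among those called with and without replicate 2, in the same direction in 3 pairs and with at least 5 CPM on average (2392 qualified); predicted symbols were not named. Also nameable were the genes with the highest supernatant 2 ratio, those with changed calls, those of the differences, and list members. Members and 30 lists (834 of 839 genes matched, 13 by synonym) were chosen with earlier results of these data known, so list counts are no independent support. Slc17a7 was picked out after its values were seen. Alternatives were a replicate block, other size factors and tools, no filter, fewer libraries and each replicate left out. Code was tested on simulated data. Genes of cytosolic ribosomal proteins and of mitochondrial DNA are not analysed here. Some genes that the naming rule selects are likewise not reported here.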

Additional observations from a re-analysis of the deposited data

Results flagged for a closer look

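The results here differed between groups by a test of the difference itself. Arap3 was less enriched in intact males than in intact females, by -5.24 on the log2 scale (edgeR adjusted p = 0.033), with pull-downs at 2.47 to 4.35 CPM in females and 0.028 to 0.171 CPM in males; with the pool as a block it did not pass (adjusted p = 1). Without replicate 2 of the intact females, the enrichment of 61 genes differed between intact males and intact females and that of 54 genes between gonadectomized and intact females, against 1 and 0 with all pairs. Gonadectomy and library number cannot be told apart in the fit without replicate 2. With the pool as a block as well, 9 and 18 genes differed.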

How the results depend on the processing

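With a replicate block for the pool, 1492 genes were higher and 1568 lower, Gnrh1 was at 6.33, and 0 genes differed between males and females; among 104 named genes besides Gnrh1 called with all pairs the block lost 2 calls (Esr2 and Kcne2). DESeq2 size factors and no filter on low counts lost none of the 104, voom with quality weights lost 7 and libraries 1 to 10 alone lost 8. None of the 104 reversed under any alternative; Slc17a7, which was not called, ran from -3.74 without pull-down 2 to 1.87 without supernatant 2. Leaving out replicate 0 lost 53 of the 104, replicate 1 lost 45 and replicate 2 lost 5. The naming rules fixed the call without replicate 2 for some of them, so the 5 is not comparable with the others. Over all fits that left out a replicate or library, counts ranged from 181 to 2618 genes higher and from 227 to 2312 lower, genes differing between males and females from 0 to 95, those differing between gonadectomized and intact females from 0 to 296, and Gnrh1 from 3.60 to 7.89. With only the groups compared, 96 genes were higher and 82 lower, 76 of 103 named genes lost their calls, Gnrh1 was at 4.56 without passing, and 0 genes differed between the sexes. The DESeq2 Wald test called 9 genes for the sexes and 10 for gonadectomy, voom with quality weights 0 and libraries 1 to 10 alone 0 for the sexes; the latter could not be fitted for gonadectomy. Without replicate 2 and with the block, the totals were 9 and 18. The cause of these changes was not tested, beyond fewer libraries leaving less to estimate the spread from. At levels of a few counts per library, absence from a pull-down cannot be told from loss of rare molecules.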
